A study of Sus scrofa with 6 samples.

Results

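Cytochrome P450 monooxygenases and the other enzymes of drug and toxin metabolism were examined in porcine lung 24 h after extended partial hepatectomy (ePHx), the surgical removal of 70% of the liver. The genes were chosen by the symbol printed in the array annotation. A symbol had to begin with CYP, FMO, ALDH, AKR, SULT or UGT and a digit, or with the name of a glutathione transferase class (GSTA, GSTM, GSTO, GSTP, GSTT, GSTK or MGST). This gave 61 probe sets of 45 genes, out of 11939 genes that could be compared. They comprised 24 CYP genes, 2 FMO, 6 ALDH, 5 AKR, 6 glutathione transferase, 1 SULT and 1 UGT gene. An AKR probe set that carries the symbols AKR1C4 and AKR1CL1 together was counted as 1 gene under both names. A further 8 genes of these families stand in the annotation under other symbols and were named only through the RefSeq gene table, and they are described separately.

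All animals were adult male German landrace pigs that had undergone ePHx. Control pigs received Ringer solution as vehicle, and MSC-treated pigs received porcine bone marrow mesenchymal stromal cells (pBM-MSC), differentiated towards hepatocytes before use, through a central vein. Each group had 3 lung samples on 1 Affymetrix Porcine Gene 1.0 ST array each. Sham-operated lungs were not analysed here, so no value below separates ePHx from the state before surgery.

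Detoxification runs in steps. First, P450 enzymes, flavin monooxygenases, aldehyde dehydrogenases and aldo-keto reductases oxidise or reduce a lipophilic substrate, and then transferases couple the product to glutathione, glucuronic acid or sulfate so that it can be exported. The liver is the main site, but mammalian lung holds its own set, much of it in the secretory (club) cells of the airways, and CYP1A1 is inducible there through the aryl hydrocarbon receptor.

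The deposited values are log2 signals, so a difference of 1 on this scale is a doubling of the signal. The comparison of the 2 groups was made with limma over all genes. A gene is said to have risen or fallen where the unadjusted p was under 0.05 and the absolute log2 fold change was at least 0.5, the thresholds of the study. Over all genes 79 rose and 143 fell, and 0 passed a Benjamini-Hochberg adjusted p under 0.05 in limma, against 328 at an unadjusted p under 0.05. Correlations between arrays ran from 0.964 to 0.989. Lung identity was borne by NKX2-1, SFTPB, SFTPC and AGER, whose signals lay between 7.38 and 12.54 on all arrays, while 23 antigenomic background probe sets averaged 3.88 to 4.24. The methods mention a batch among the lung samples without naming its arrays, and the labels do not give it, so its part in any result was not tested. The arrays are of whole lung tissue, in which fewer cells of a type and less RNA per cell cannot be told apart.

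Of the 45 detoxification enzymes, 1 rose, 0 fell and 44 did not pass, which is 2.22% called against 1.86% of all genes (0.662% rose and 1.2% fell). CYP2C91 was the gene that rose. An unadjusted p under 0.05 in limma was reached by 2 enzymes, CYP2C91 and GSTA4, where 2.75% of all genes reached it. The control and MSC-treated arrays did not overlap for 3 of the 45 (CYP2C91, GSTA4 and CYP4A21), or 6.67% against 7.47% of all genes. Both shares lay near those of all genes. The log2 fold changes ran from -0.69 (GSTA2) to 0.89 (CYP2C91) with a median of -0.05, where the median of all genes was 0.00. Signals were lower on average in MSC-treated lungs for 32 enzymes, 71.1% against 50.5% of all genes, and higher for 13. For 43 of the 45, or 95.6% against 97.1% of all genes, the spread between pigs of 1 group was wider than the difference between the groups.

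**Figure D1:**
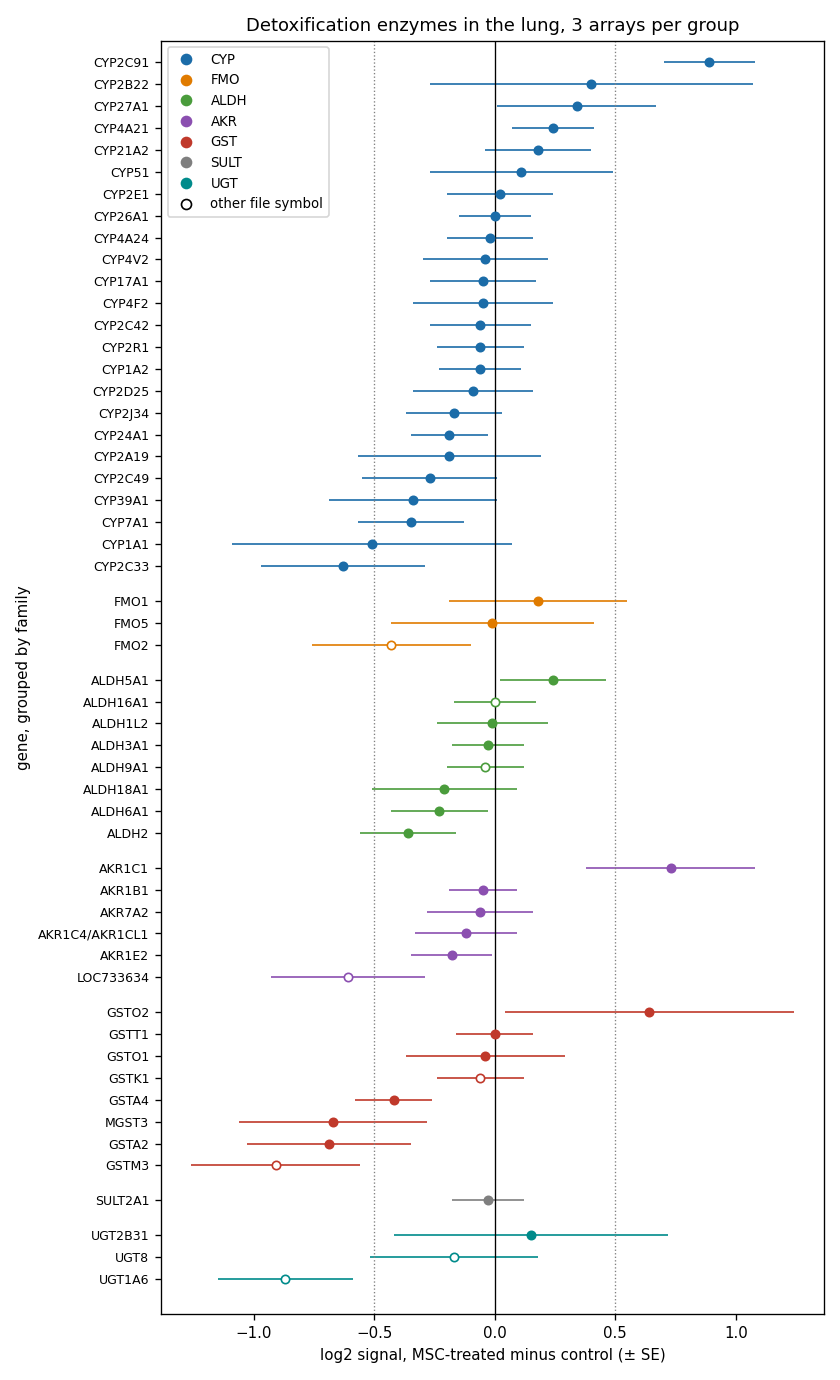
Difference in log2 signal between MSC-treated and control lungs for each enzyme gene, by family, with the standard error of the limma fit as a bar (3 arrays per group). Filled points are the 45 genes chosen by symbol, open points the 8 genes found under another symbol, and dotted lines mark a log2 fold change of -0.5 and 0.5. CYP2C91 lies farthest to the right at 0.89, followed by AKR1C1 at 0.73, with GSTM3 and UGT1A6 farthest to the left at -0.91 and -0.87.

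The interval of the difference shows what 3 pigs per group could resolve. For 32 of the 45 enzymes, or 71.1% against 86.8% of all genes, the 95% interval lay wholly within 1 log2 unit of 0. Among the 32 were 5 genes below the background probe sets on all arrays (CYP17A1, CYP24A1, CYP2C42, CYP2E1 and SULT2A1). Their narrow intervals carry no information on a change. The aldose reductase gene AKR1B1 was the steadiest member across arrays, with signals of 7.26 to 7.38 and an interval of -0.37 to 0.28. For the other 13 (AKR1C1, CYP1A1, CYP27A1, CYP2A19, CYP2B22, CYP2C33, CYP2C91, CYP39A1, FMO1, GSTA2, GSTO2, MGST3 and UGT2B31) a change of 1 log2 unit in at least 1 direction lay inside the interval.

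CYP2C91 belongs to the CYP2C subfamily, whose members oxidise drugs, steroids and fatty acids. Its log2 signal was 5.65, 5.68 and 6.15 in the 3 control lungs and 6.85, 6.68 and 6.61 in the 3 MSC-treated lungs. All MSC-treated arrays lay above all control arrays, and every array lay above the background probe sets. The means were 5.83 ± 0.28 and 6.71 ± 0.12 (SD, n = 3 each). The log2 fold change was 0.89 (SE 0.19, 95% interval 0.45 to 1.32), with an unadjusted p of 0.0017 and an adjusted p of 1.0 in limma, and p = 0.1 in the exact permutation test. Leaving out any 1 array gave 0.80 to 1.05, past the thresholds each time, but the rise is below the fold of 2.0 that the methods also name.

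RefSeq lists CYP2C91 on chromosome 14 as a transcribed pseudogene, so the signal is that of a transcript and does not show an enzyme. The P450 genes next to it in RefSeq order did not pass the test. CYP2C42, the nearest, gave 2.55, 3.0 and 2.51 in control and 2.91, 2.39 and 2.60 in MSC-treated lungs, below the background probe sets on all arrays, so it carries no information on a change. CYP2C49 gave 5.61, 5.45 and 4.78 in control and 4.68, 4.89 and 5.45 in MSC-treated lungs, a difference of -0.27 (SE 0.28). The signal of CYP2C91 minus that of CYP2C49 on the same array was 0.55 ± 0.72 in control and 1.71 ± 0.51 in MSC-treated lungs (SD, n = 3 each), which the exact permutation test did not separate (p = 0.2, two-sided, a pair chosen after the values were seen). CYP2C33, also of chromosome 14, had the lowest fold change of the CYP genes at -0.63 (SE 0.34), but it was above the background probe sets on 1 array only, control replicate 2 with 4.37. Without that array the difference was -0.26, and without control replicate 3 it was -0.98, past the thresholds.

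CYP families 1 to 3 handle most foreign compounds. The 12 genes of them chosen by symbol were all of families 1 and 2, so nothing here covers the CYP3 genes. These 12 had a median log2 fold change of -0.07, with 1 that rose and 0 that fell. CYP1A1, which oxidises polycyclic aromatic hydrocarbons, differed more between pigs than between groups. Its signal was 7.30, 5.61 and 6.39 in control and 5.54, 7.14 and 5.10 in MSC-treated lungs. Control replicate 1 and MSC-treated replicate 2 were both above 7, and the groups overlapped widely. CYP1A1 differed by -0.51 (SE 0.58, 95% interval -1.86 to 0.85). A second probe set, with 7.29, 5.18 and 6.34 in control and 5.63, 7.08 and 4.70 in MSC-treated lungs, gave the same order of the arrays apart from control replicate 2 and MSC-treated replicate 1. Both probe sets have the cross-hybridisation mark in the annotation. The difference came to -0.08 without control replicate 1 and to -0.10 without MSC-treated replicate 3, and to -1.11, past the thresholds, without MSC-treated replicate 2.

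CYP2A19 and CYP2B22 are the porcine counterparts of the human CYP2A and CYP2B enzymes, CYP2A19 being known in pig for the breakdown of skatole. CYP2A19 is measured by 5 probe sets, and the brightest gave 7.10, 6.71 and 7.48 in control and 6.88, 7.68 and 6.17 in MSC-treated lungs. In all 5 probe sets control replicate 3 and MSC-treated replicate 2 were the highest arrays. The differences between the groups were -0.19, -0.44, -0.33, -0.28 and -0.18 for the 5 probe sets, of which 4 carry the cross-hybridisation mark and are not separate measurements of the gene. CYP2B22 gave 7.07, 6.81 and 8.63 in control and 6.64, 9.06 and 8.01 in MSC-treated lungs, which differed by 0.40 (SE 0.67), and by 0.08 in its second probe set. Here too control replicate 3 and MSC-treated replicate 2 were highest, and the difference ran from -0.18 without MSC-treated replicate 2 to 1.03 without MSC-treated replicate 1. The remaining genes of these families, CYP1A2, CYP2D25, CYP2E1, CYP2J34 and CYP2R1, had log2 fold changes of -0.17 to 0.02, and the ethanol-inducible CYP2E1 was below the background probe sets on all arrays.

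The 4 genes of CYP family 4, which hydroxylate fatty acids at the chain end, had a median log2 fold change of -0.03. CYP4A21, known in pig liver as a bile acid hydroxylase, gave 3.94, 3.70 and 3.95 in control and 3.97, 4.02 and 4.32 in MSC-treated lungs. The groups did not overlap, yet the difference was 0.24 (SE 0.17), p was 0.1 in the exact permutation test, and only 3 of the 6 arrays were above the background probe sets. CYP4V2 had a log2 fold change of -0.04 in its brighter probe set, with signals of 8.43 to 9.29, and of 0.34 in the other, so its probe sets pointed in different directions. CYP4A24 and CYP4F2 were at -0.02 and -0.05.

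For 8 P450 genes of sterol, steroid, bile acid, vitamin D and retinoid metabolism the median was -0.02, with 4 lower and 4 at or above 0. CYP2R1 was counted with family 2 above. CYP7A1, the rate-limiting enzyme of bile acid synthesis in liver, gave 8.83, 8.19 and 8.31 in control and 7.90, 8.30 and 8.09 in MSC-treated lungs. The difference was -0.35 (SE 0.22), and the groups overlapped through MSC-treated replicate 2. CYP39A1, an oxysterol hydroxylase, was at -0.34 (SE 0.35), or 0.01 without MSC-treated replicate 3. That probe set carries the cross-hybridisation mark, and the second, without it, was at -0.46. The sterol 27-hydroxylase gene CYP27A1 was at 0.34 (SE 0.33), or 0.03 without control replicate 2. The steroid 21-hydroxylase gene CYP21A2 was at 0.18 (SE 0.22), and its second, dimmer probe set at -0.02. Of the 32 probes in the brighter set, the annotation counts 1 as a direct match. The lanosterol demethylase gene CYP51, of cholesterol synthesis, was at 0.11 (SE 0.38). CYP51 was high, above 9, in control replicate 2 (9.18) and MSC-treated replicate 1 (9.11) and lower on the other 4 arrays (7.96 to 8.56). CYP17A1 and CYP24A1 were below the background probe sets on all arrays, and the retinoic acid hydroxylase gene CYP26A1 gave 4.11 to 4.36, just above them, with a difference of 0.00.

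The flavin monooxygenases oxidise nitrogen and sulfur atoms of drugs. FMO1 (chr9:70137792-70171698 on Sscrofa10.2, plus strand) gave 11.29, 9.85 and 11.0 in control and 10.61, 11.20 and 10.88 in MSC-treated lungs. The low array was control replicate 2, and the log2 fold change of 0.18 (SE 0.37) turned to -0.25 without it. FMO5 gave 7.90, 8.72 and 8.75 in control and 8.54, 9.23 and 7.58 in MSC-treated lungs, a difference of -0.01 (SE 0.42).

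Aldehyde dehydrogenases remove reactive aldehydes and serve amino acid and folate metabolism. Of the 6 measured by symbol, 0 rose and 0 fell, 5 were lower in MSC-treated lungs on average, and the median log2 fold change was -0.12, which turned to 0.09 without control replicate 2. ALDH2, the mitochondrial enzyme that clears acetaldehyde (chr14:42378891-42409687 on Sscrofa10.2, minus strand), gave 9.53, 9.58 and 9.77 in control and 8.95, 9.60 and 9.26 in MSC-treated lungs. ALDH2 differed by -0.36 (SE 0.20), and a second probe set gave -0.34. The first of these probe sets carries the cross-hybridisation mark and the second does not. MSC-treated replicate 2 lay within the control range. The difference was -0.52, past the thresholds, without that array and -0.20 without MSC-treated replicate 1. ALDH6A1, of valine and thymine breakdown, was at -0.23 (SE 0.20) and ALDH5A1, succinic semialdehyde dehydrogenase, at 0.24 (SE 0.22). The proline synthesis gene ALDH18A1, the folate enzyme gene ALDH1L2 and ALDH3A1 were at -0.21, -0.01 and -0.03.

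Aldo-keto reductases reduce carbonyl groups of steroids, sugars and aldehydes. AKR1C1, a hydroxysteroid dehydrogenase in human, gave 6.65, 5.90 and 5.79 in control and 6.44, 6.54 and 7.55 in MSC-treated lungs. MSC-treated replicate 3 was a full unit above the other MSC-treated arrays, and control replicate 1 overlapped the MSC-treated range. The fit gave a log2 fold change of 0.73 (SE 0.35, 95% interval -0.08 to 1.55). It rested much on MSC-treated replicate 3, without which it was 0.38, and over the fits without 1 array it ran from 0.38 to 1.00, past the thresholds without control replicate 1 (1.00) and without MSC-treated replicate 1 (0.93). AKR1C1 has 2 probe sets with the same values on all arrays. Both carry the cross-hybridisation mark and are not separate measurements of the gene. Whether they also take up signal of its close relatives on chromosome 10 was not tested. The probe set of AKR1C4 and AKR1CL1 gave 10.24, 10.34 and 10.32 in control and 9.75, 10.35 and 10.45 in MSC-treated lungs, a difference of -0.12 (SE 0.21). LOC733634, which RefSeq places under the name AKR1C1 as well and which the annotation sets 72082 bases from the AKR1C4 and AKR1CL1 transcript on Sscrofa10.2, gave 8.90, 9.09 and 8.32 in control and 8.47, 8.50 and 7.53 in MSC-treated lungs. LOC733634 was kept apart from AKR1C1 because its signal went the other way, so their opposite signs are no separate result. Joined under the RefSeq name, its probe set, with the higher mean (8.47 against 6.48), would have stood for AKR1C1. LOC733634 differed by -0.61 (SE 0.32), opposite in sign to AKR1C1. MSC-treated replicate 3 was its lowest array where it was the highest of AKR1C1, and without that array LOC733634 was at -0.29. The signal of AKR1C1 minus that of LOC733634 was -2.66 ± 0.48 in control and -1.32 ± 1.17 in MSC-treated lungs (SD, n = 3 each), with p = 0.1 in the two-sided exact permutation test, the smallest it can give, for a pair chosen after the values were seen. AKR1B1, AKR7A2 and AKR1E2 were at -0.05, -0.06 and -0.18.

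**Figure D2:**
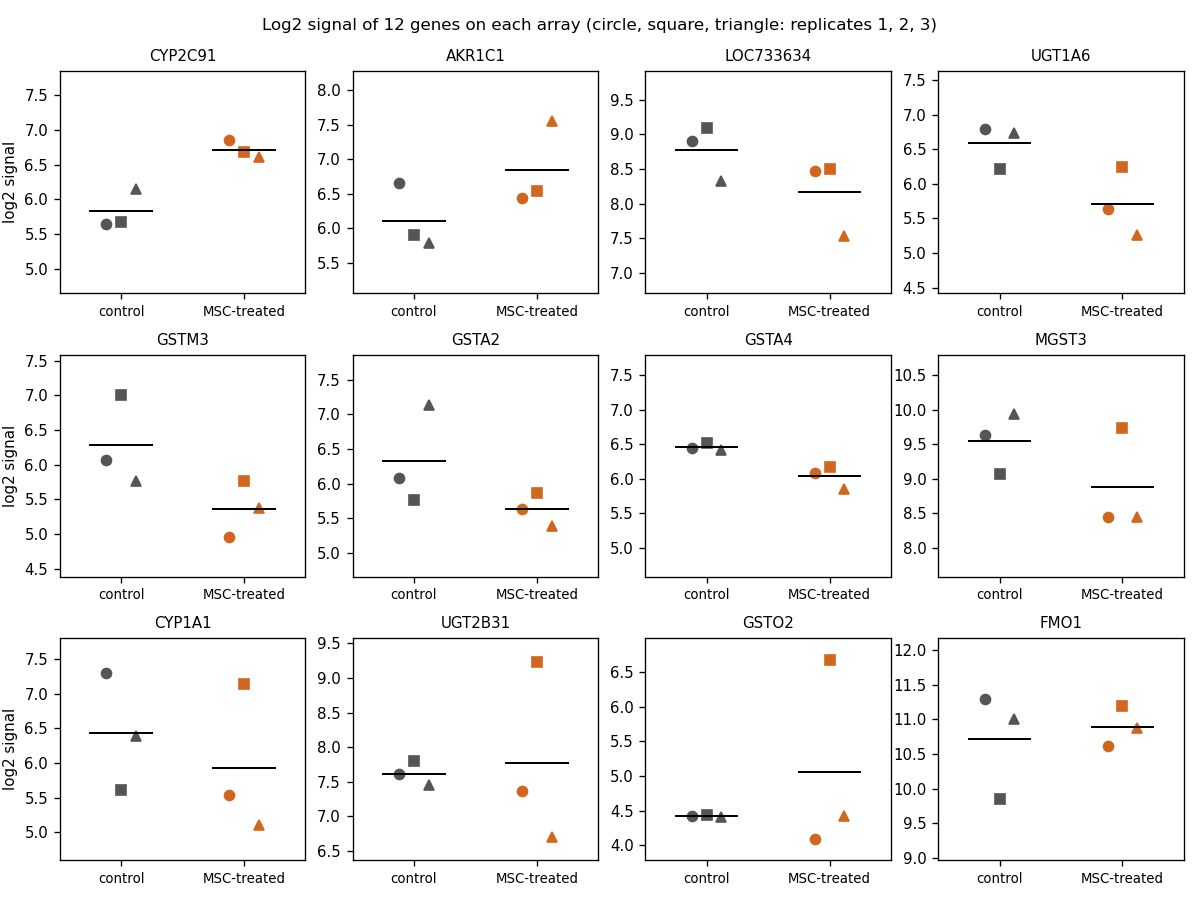
Log2 signal of 12 enzyme genes on each array. Grey symbols are control and orange symbols MSC-treated lungs, circles, squares and triangles are replicates 1, 2 and 3, bars are group means, and each panel spans 3.2 log2 units. CYP2C91 and GSTA4 have groups that do not overlap, while UGT2B31 and GSTO2 have 1 high array, MSC-treated replicate 2.

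Glutathione transferases couple glutathione to electrophiles, and those of the alpha class also act on products of lipid peroxidation. The 6 genes measured by symbol had a median log2 fold change of -0.23, with 0 that rose and 0 that fell. GSTA4, which acts on 4-hydroxynonenal, gave 6.44, 6.52 and 6.41 in control and 6.09, 6.17 and 5.86 in MSC-treated lungs. All MSC-treated arrays lay below all control arrays, and the spread within the groups was small, with means of 6.46 ± 0.06 and 6.04 ± 0.16 (SD, n = 3 each). The log2 fold change of -0.42 (SE 0.16, 95% interval -0.78 to -0.05) had an unadjusted p of 0.0294 and an adjusted p of 1.0 in limma, and p = 0.1 in the exact permutation test, but was under the fold threshold. It was between -0.33 and -0.48 without any 1 array.

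In the annotation, GSTA2 is at chr7:134289617-134312033 and GSTA4 at chr7:134379974-134400509 on Sscrofa10.2. Both are on the minus strand, 67940 bases apart, and whether other genes lie between them was not examined. GSTA2 gave 6.08, 5.77 and 7.13 in control and 5.64, 5.87 and 5.39 in MSC-treated lungs. Control replicate 3 was far above the other arrays, and MSC-treated replicate 2 overlapped the control range. GSTA2 differed by -0.69 (SE 0.34, 95% interval -1.48 to 0.10), and a second, dimmer probe set of 11 probes gave -1.19. Without control replicate 3 the difference was -0.29, and without control replicate 2 it was -0.97, past the thresholds, as it was when the probe sets were averaged (-0.94). The microsomal transferase gene MGST3 (chr4:92725490-92750969 on Sscrofa10.2, minus strand) gave 9.63, 9.07 and 9.93 in control and 8.45, 9.74 and 8.45 in MSC-treated lungs. MSC-treated replicates 1 and 3 lay below all control arrays, while MSC-treated replicate 2 lay among them. MGST3 differed by -0.67 (SE 0.39, 95% interval -1.56 to 0.23). It was -1.10, past the thresholds, without MSC-treated replicate 2, and -0.45 without either of the other MSC-treated arrays.

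GSTO2, an omega-class enzyme that reduces dehydroascorbate, gave 4.42, 4.43 and 4.41 in control and 4.09, 6.68 and 4.42 in MSC-treated lungs. MSC-treated replicate 2 alone was high, by more than 2 log2 units, and the other 5 arrays were close to the background probe sets. The log2 fold change of 0.64 (SE 0.60) therefore turned to -0.17 without that array. The omega-class gene GSTO1 on the same chromosome, 14, was not high on that array (7.66, with 7.26 to 8.53 over all arrays). It differed by -0.04. GSTO1 and GSTO2 each have 2 probe sets with the same values on all arrays. All of these carry the cross-hybridisation mark and are not separate measurements of a gene. GSTT1 was at 0.00, with signals of 5.82 to 6.10.

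UGT2B31, of the UGT2B subfamily that conjugates glucuronic acid to steroids and drugs, was the 1 UGT gene chosen by symbol. It gave 7.61, 7.80 and 7.45 in control and 7.37, 9.23 and 6.71 in MSC-treated lungs, a difference of 0.15 (SE 0.57). As for GSTO2, MSC-treated replicate 2 was the highest array, and without it the difference was -0.58. The hydroxysteroid sulfotransferase gene SULT2A1 was below the background probe sets on all arrays.

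Among the 8 family members listed under another symbol, 2 fell and 0 rose, and their median log2 fold change was -0.30. They are no part of the counts above, and both that fell were noted after their values were seen. UGT1A6, which glucuronidates phenols, gave 6.79, 6.22 and 6.74 in control and 5.64, 6.24 and 5.26 in MSC-treated lungs. MSC-treated replicate 2 just reached the lowest control array. The fit gave -0.87 (SE 0.28, 95% interval -1.52 to -0.21), with p = 0.0158 and an adjusted p of 1.0 in limma and p = 0.2 in the exact permutation test, and the second probe set gave -1.0. Both UGT1A6 probe sets have the cross-hybridisation mark and are not separate measurements of the gene. GSTM3, a mu-class glutathione transferase, gave 6.07, 7.01 and 5.76 in control and 4.96, 5.77 and 5.37 in MSC-treated lungs. The groups met at control replicate 3 and MSC-treated replicate 2, and the fit gave -0.91 (SE 0.35, 95% interval -1.72 to -0.10), with p = 0.0317 and an adjusted p of 1.0 in limma and p = 0.2 in the exact permutation test. Neither call held without every array. UGT1A6 missed the thresholds without control replicate 1 (-0.77), control replicate 3 (-0.79) or MSC-treated replicate 3 (-0.64), and GSTM3 without control replicate 2 (-0.54), MSC-treated replicate 1 (-0.71) or MSC-treated replicate 3 (-0.91) and with array weights (-0.62). FMO2, the main flavin monooxygenase of the lung in many mammals, gave 10.52, 10.09 and 11.16 in control and 10.16, 10.65 and 9.68 in MSC-treated lungs, a difference of -0.43 (SE 0.33) that ran from -0.14 to -0.68 without 1 array. UGT8, GSTK1, ALDH9A1 and ALDH16A1 were at -0.17, -0.06, -0.04 and 0.00.

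With both sets together, 53 genes, 1 rose and 2 fell. At 5.66% this was above the 1.86% of all genes, but the extra 8 genes were added with their values known.

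Several enzymes shared an array pattern that crossed the groups. In 7 of the 45 (AKR7A2, ALDH2, CYP2A19, CYP2B22, CYP4V2, FMO5 and MGST3) the highest pair of arrays was control replicate 3 and MSC-treated replicate 2, or 15.6% against 7.98% of all genes. In 7 (ALDH6A1, CYP1A1, CYP2A19, CYP7A1, FMO1, GSTA2 and MGST3) the 3 highest arrays were these and control replicate 1, or 15.6% against 12.2% of all genes. In 5 of the 45 the 3 highest arrays were the reverse set, control replicate 2 and MSC-treated replicates 1 and 3, or 11.1% against 10.9% of all genes. Over all genes, deviations from the group means correlated at 0.39 between control replicate 3 and MSC-treated replicate 2. They correlated at 0.61 between control replicate 2 and MSC-treated replicate 1, so arrays that vary together across the groups are not particular to the enzymes. These array sets were picked after the values were seen and are a description.

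**Figure D3:**
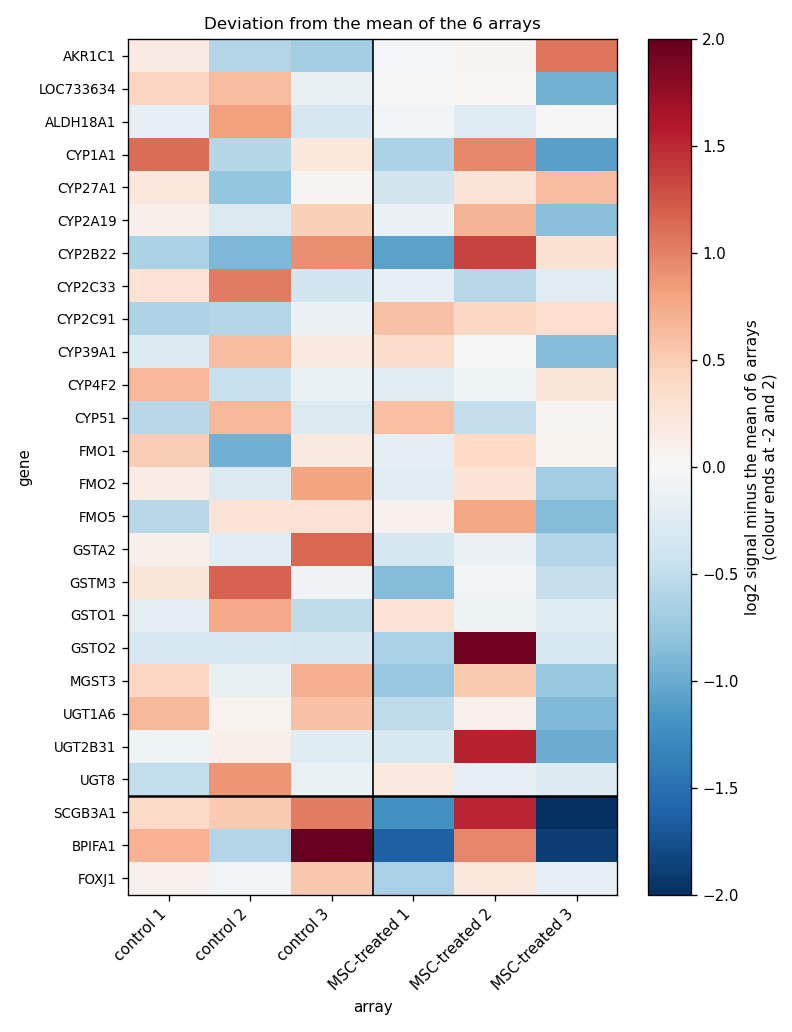
Deviation of the log2 signal from the mean of the 6 arrays, in colour, for the 23 enzyme genes whose signals spanned at least 1 log2 unit and, below the line, for 3 airway markers. Red is above and blue below the gene's mean. No column is of 1 colour, and MSC-treated replicate 2 is red for CYP1A1, CYP2B22, GSTO2 and UGT2B31.

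Markers of airway epithelium varied in a like way. Of the 7 club cell markers listed, 2 were measured, and 0 of these passed the test. SCGB3A1, a secretoglobin, gave 9.61, 9.75 and 10.26 in control and 8.02, 10.75 and 6.99 in MSC-treated lungs, a difference of -1.29 (SE 0.83). BPIFA1, a secreted airway protein, gave 7.32, 6.03 and 9.06 in control and 4.99, 7.59 and 4.73 in MSC-treated lungs, a difference of -1.70 (SE 0.92). Both were highest in control replicate 3 and MSC-treated replicate 2, as the CYP2A19 probe sets were, and lowest in MSC-treated replicates 1 and 3. The defining club cell marker SCGB1A1 was not among the genes compared here. Of 9 ciliated cell markers 2 were measured, and FOXJ1 was at -0.39 (SE 0.26). The mean signal of the measured club cell markers was 8.47, 7.89 and 9.66 in control and 6.51, 9.17 and 5.86 in MSC-treated lungs. The part of airway cells in the differences of MGST3, CYP2A19, CYP2B22 and CYP1A1 was not tested.

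**Figure D4:**
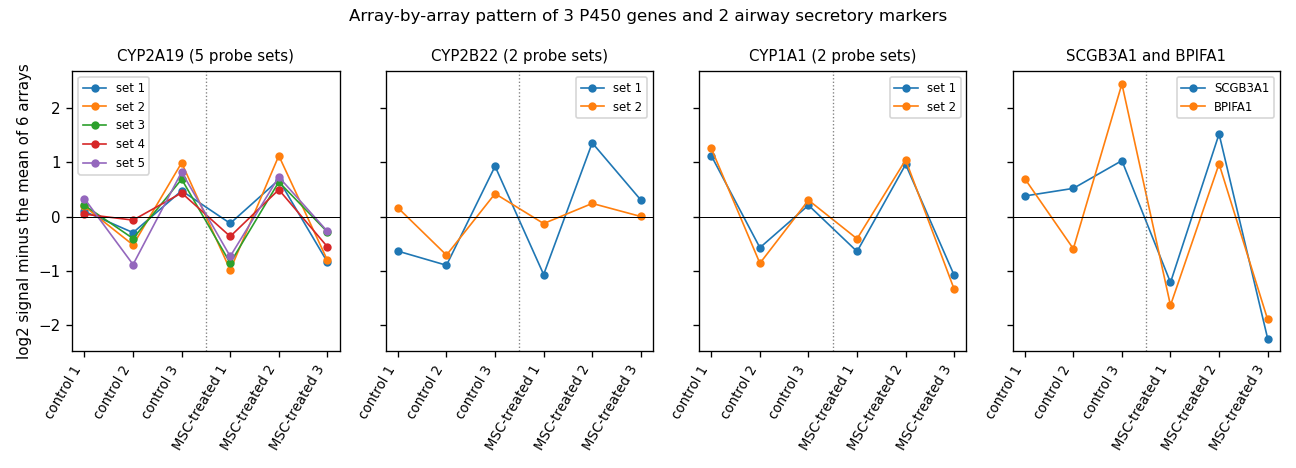
Deviation of the log2 signal from the mean of the 6 arrays for each probe set of CYP2A19, CYP2B22 and CYP1A1 and for the airway markers SCGB3A1 and BPIFA1. Lines join the arrays of 1 probe set to make it easier to follow and stand for no order, and the dotted line parts control from MSC-treated arrays. All 5 CYP2A19 probe sets peak in control replicate 3 and MSC-treated replicate 2, while CYP1A1 also peaks in control replicate 1.

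Markers of other cell types were counted in the same way. Of those measured, 0 of 6 of alveolar type 2 cells and 0 of 6 of alveolar type 1 cells passed. For endothelium, macrophages and fibroblasts 0 of 5, 0 of 3 and 0 of 5 passed. Of the neutrophil markers 2 of 7 fell, or 28.6%, and of the erythroid markers 2 of 5, or 40.0%, against 1.2% of all genes. The mean signal of the neutrophil markers was 8.99, 7.37 and 7.10 in control and 7.10, 6.88 and 6.64 in MSC-treated lungs, and that of the erythroid markers 6.97, 5.58 and 5.63 against 4.99, 5.45 and 5.23. Both lists were highest in control replicate 1, and their part in the enzyme differences was not tested. Of 9 hepatocyte markers 1 fell, or 11.1% against 1.2% of all genes, and it was FGB (-0.77, SE 0.30). The albumin gene ALB gave 7.65 in control replicate 1 and 3.70 to 5.40 on the other arrays. That array was the highest for 3 of the 9 hepatocyte markers. It was also the highest for 7 of the 45 enzymes, beside 1659 of the 11939 genes. These 7 enzymes were ALDH6A1, CYP1A1, CYP2C49, CYP2E1, CYP4F2, CYP7A1 and FMO1, with CYP2E1 below the background probe sets on all arrays. On MSC-treated replicate 2, where ALB was lowest at 3.70, CYP7A1 gave 8.30, CYP4F2 6.05 and CYP2C49 4.89. The part of liver RNA in the enzyme values was not tested.

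Genes around the enzymes were taken from 8 lists, of which 56 genes were measured, CYP1A1 and CYP1A2 among them. Of these 1 fell and 0 rose, 1.79% called against 1.86% of all genes. Their median log2 fold change was -0.05, the value found for the enzymes themselves. In the axis of the aryl hydrocarbon receptor, 0 of 7 passed. The receptor gene AHR gave 8.81, 9.0 and 8.94 in control and 8.46, 8.92 and 8.66 in MSC-treated lungs (-0.24, SE 0.17), and its partner ARNT was at 0.13 (SE 0.16). NQO1, a quinone reductase that both this receptor and NRF2 induce, gave 8.20, 7.5 and 7.91 in control and 7.53, 7.72 and 7.18 in MSC-treated lungs, a difference of -0.39 (SE 0.23). Control replicate 1 was the highest array for both NQO1 and CYP1A1, and MSC-treated replicate 3 the lowest. Control replicate 3 and MSC-treated replicate 2 came next to the highest for both genes, in opposite order.

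In the list of the pregnane X and constitutive androstane receptors, which induce CYP2 and CYP3 genes, 0 of 5 passed (NCOA1 0.33, SE 0.20, RXRA -0.12, SE 0.26). Its other genes, NR1I3, PPARGC1A, CYP3A4, CYP2B6 and ABCB1, were not among the genes compared here. In the NRF2 axis, the response to electrophiles, 0 of 10 passed and 8 were lower on average, with NFE2L2 itself at -0.32 (SE 0.31) and GCLM, of glutathione synthesis, at -0.25 (SE 0.18). Of 7 genes listed as electron donors or partners of the P450 enzymes 4 were measured, and 0 of these passed. POR, CYB5R3 and FDX1 of that list were not among the genes compared here. The haem-binding partner gene PGRMC1 was at -0.38 (SE 0.20) and the cytochrome b5 genes CYB5A and CYB5B at -0.13 and 0.01. For the supply of conjugation cofactors 0 of 5 passed, all 5 were lower on average, and UGP2, which makes UDP-glucose, gave 9.62, 9.59 and 9.08 in control and 9.01, 9.13 and 8.75 in MSC-treated lungs (-0.47, SE 0.20).

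Of 8 transporters that export conjugates or take up organic ions 0 passed. The prostaglandin carrier gene SLCO2A1 was at -0.88 with a wide error (SE 0.70), from 9.71, 7.0 and 9.35 in control and 6.96, 8.45 and 8.02 in MSC-treated lungs, and the cation carrier gene SLC22A3 was at -0.59 (SE 0.28). ABCC3, an exporter of glucuronides, had groups that did not overlap, with 6.25, 6.03 and 6.24 in control and 5.93, 5.88 and 5.98 in MSC-treated lungs, at a difference of -0.25 (SE 0.15). In the retinoic acid axis 1 of 9 fell. It was RBP4, the plasma carrier of retinol, with 6.10, 6.32 and 6.62 in control and 5.50, 5.90 and 6.01 in MSC-treated lungs, groups that did not overlap and a log2 fold change of -0.54 (SE 0.21), with p = 0.0338 and an adjusted p of 1.0 in limma and p = 0.1 in the exact permutation test. RBP4 passed without control replicate 1 or MSC-treated replicate 3 but missed the thresholds without each of the other 4 arrays (-0.39 to -0.59). Of 12 other detoxification enzymes 0 passed, 7 were higher and 5 lower on average, and their median was 0.01. The xanthine dehydrogenase gene XDH was at 0.42 (SE 0.25), and the epoxide hydrolase genes EPHX1 and EPHX2 were at -0.35 (SE 0.25) and -0.38 (SE 0.25).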

How the data were processed

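The deposited values are log2 signals per probe set. The authors computed them by RMA, which corrects background, normalizes quantiles across arrays and summarizes probes (Affymetrix Expression Console 1.4 in the submitters' processing notes). Quantile normalization hides any shift that most genes have in common. ComBat and the Brainarray annotation of the methods are not part of these values. Another deposited table gave the annotation. Its 6 signal columns have names that match no label and were not used. Of 19124 main probe sets, 12912 had 1 gene and 212 several. The probe set with the highest mean stood for each gene, with no filter on low signals. The number of arrays limits the precision. The labels name 3 replicates per group, which the methods describe as different animals.

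Groups were compared with limma 3.58.1 (lmFit, eBayes) in R 4.3.3, adjusted over all genes by Benjamini-Hochberg, and single genes by two-sided exact permutation tests. The fit was tested on simulated data. Same-numbered replicates correlated at -0.40, -0.48 and 0.06 in their deviations and were not paired. The gene families, lists and tests were chosen with earlier results of these data known. Named genes are all enzymes past the thresholds, the 10 highest and 10 lowest fold changes, the 8 highest signals, CYP2C91, the smallest p of each family, and up to 4 genes of smallest p and 2 of highest signal of each list. Other members are named to account for every gene. Coordinates are those of the transcripts in the array annotation (Sscrofa10.2). The RefSeq table (Sscrofa11.1) gave only names, gene types and neighbours. Alternatives were another quantile normalization, median centring, a mean log2 of at least 5, averaged probe sets, trended and robust variance, array weights, the methods' t-test, leaving out single arrays, and a replicate block.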

Additional observations from a re-analysis of the deposited data

How the results depend on the processing

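CYP2C91 kept its direction and its side of the thresholds in limma under every alternative run (0.80 to 1.05), and missed only the fold above 2.0 of the methods' t-test (0.89). By that t-test 2 genes of all, 0 enzymes and 0 pathway genes passed, and 0 genes after Benjamini-Hochberg. The number of genes past the thresholds ranged from 184 to 624 over the fits without 1 array, with 473 without control replicate 2 and 624 without MSC-treated replicate 2, against 222 with all arrays. Enzymes past the thresholds ranged from 1 to 4, the 4 being CYP2C91, ALDH2, CYP1A1 and MGST3 without MSC-treated replicate 2, and were 2 with averaged probe sets (CYP2C91 and GSTA2). Pathway genes ranged from 0 to 3 without 1 array and were 3 with array weights. With averaged probe sets limma gave 1 gene, outside these families, an adjusted p under 0.05. The median log2 fold change of all 45 enzymes lay between -0.11 and -0.03 under the alternatives that gave one, but that of the ALDH genes turned from -0.12 to 0.09 without control replicate 2 and that of the AKR genes from -0.06 to 0.09 without MSC-treated replicate 1. The replicate numbers do not pair the pigs. With the number as a replicate block 170 genes and 1 enzyme passed, CYP2C91 at 0.89, and LOC733634 passed at -0.61. The second deposited table and the letters in 3 array names as a batch were not run, because the names match no label. A minimum of 5 on the mean log2 left 154 genes past the thresholds, among fewer genes tested. Signals near the background probe sets, as of CYP2C33, CYP4A21 and GSTO2, limit what a difference can show.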
